A study of Mus musculus with 2 samples.

Results

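The genes of 8 transcription factors of the bipolar lineage and its subtypes, Vsx1, Isl1, Bhlhe22, Bhlhe23, Prdm8, Irx5, Irx6 and Lhx4, were followed in nuclei of the mouse retina. They were chosen by gene symbol, and all 8 were found among the 32227 genes of the deposited gene table. Single nuclei of whole retina from C57 BL/6J mice were profiled by PIPseq at postnatal day 21, with 1 library for each of 2 genotypes. The Cre- library, whose genotype label reads WT, came from animals that lacked the Cre transgene, and the Tet tcKO library from animals whose floxed Tet1, Tet2 and Tet3 were recombined by a Chx10-Cre-GFP transgene active in retinal progenitor cells. The comparison asked what loss of the 3 TET enzymes, which oxidise 5-methylcytosine on the way to DNA demethylation, left of gene expression in the mature retina. The transgene is mosaic, so Cre-positive animals had been in-crossed to carry 2 copies. Retinas were pooled over 2 nuclear dissociations for each genotype, and the nuclei of the pools could not be told apart, so no spread between animals was available and no test was made. All intervals are exact 95% intervals that cover counting error only.

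Bipolar cells carry signals from photoreceptors to amacrine and ganglion cells. ON types respond to light increments through the metabotropic receptor mGluR6, OFF types respond to light decrements through ionotropic glutamate receptors, and rod bipolar cells serve the rod pathway. The LIM-homeodomain protein ISL1 is needed for ON and rod bipolar cells, and also acts in ganglion cells and cholinergic starburst amacrine cells. LHX4 is a LIM-homeodomain protein of cone bipolar cells and young cones. VSX1 is a paired-like homeodomain protein of OFF cone bipolar cells and of an ON type. BHLHE22 and BHLHE23 are related basic helix-loop-helix repressors, of OFF cone bipolar and some amacrine cells and of rod bipolar cells, respectively. PRDM8 is a PR-domain zinc-finger protein that rod bipolar cells and an OFF type need. IRX5 and IRX6 are Iroquois homeodomain proteins of cone bipolar cells, and genes of the family are also expressed in ganglion cells.

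The genes lie apart in the genome except for the Iroquois pair. On GRCm39, the build the labels name, Vsx1 spans chr2:150522622-150531280 and Bhlhe23 spans chr2:180416174-180418693, both on the minus strand. Isl1 spans chr13:116434817-116446235 and Lhx4 spans chr1:155573777-155627430, both also on the minus strand. Bhlhe22 spans chr3:18108338-18111681 and Prdm8 spans chr5:98315057-98336850, on the plus strand. Irx5 at chr8:93084253-93102914 and Irx6 at chr8:93400916-93407584 lie 298 kb apart on the plus strand. Bhlhe23 overlaps the gene model Gm14343 on the same strand, which held 37 UMIs (unique molecular identifiers, each a counted transcript molecule) in the Cre- library and 31 in the Tet tcKO library, so the split of reads between them is uncertain. Genes on the opposite strand overlap Bhlhe22, Prdm8, Irx5 and Irx6, and the sources used here do not say whether counting used strand.

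Because the study concerns methylation of CG dinucleotides, CG was counted in the RefSeq promoter windows of GRCm38.p6, an older build than that of the counts, from 250 bases before to 50 bases after the start. Windows were given for 5 of the 8 genes, which were Vsx1, Isl1, Bhlhe23, Prdm8 and Lhx4. The windows of Vsx1 (chr2:150689088-150689387) and Isl1 (chr13:116309639-116309938), both on the minus strand, are printed because they hold the fewest and the most CG of the 5 and because the 2 genes differed in opposite directions between genotypes over all nuclei. They run 5′ to 3′ on the gene's strand, with CG in capitals.
Vsx1: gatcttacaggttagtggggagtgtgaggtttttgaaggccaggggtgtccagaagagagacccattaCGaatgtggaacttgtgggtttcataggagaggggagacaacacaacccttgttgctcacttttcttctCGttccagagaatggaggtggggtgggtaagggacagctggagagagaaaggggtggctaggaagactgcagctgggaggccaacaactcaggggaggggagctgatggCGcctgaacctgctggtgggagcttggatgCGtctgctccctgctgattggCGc
Isl1: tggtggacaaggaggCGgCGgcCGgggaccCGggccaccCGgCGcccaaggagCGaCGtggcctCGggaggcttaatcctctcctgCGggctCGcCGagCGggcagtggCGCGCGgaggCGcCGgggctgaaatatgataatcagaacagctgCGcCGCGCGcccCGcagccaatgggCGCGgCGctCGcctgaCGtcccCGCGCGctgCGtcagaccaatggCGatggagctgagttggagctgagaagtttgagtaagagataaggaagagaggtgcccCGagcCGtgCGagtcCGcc
The Vsx1 window holds 5 CG and the Isl1 window 37, against a median of 7 over 32851 windows. Bhlhe23 and Lhx4 have 19 each and Prdm8 has 12. The letters TAATCC, searched on both strands, were in the Isl1 window alone of the 5 and in 7.06% of all windows, and TAATTA, which shares its first letters TAAT with it, was in none of the 5 and in 5.29% of all. These are counts of letters, and no methylation was measured in these libraries.

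In the Cre- library 7357 nuclei gave 11510585 UMIs (median 1107 per nucleus), and in the Tet tcKO library 6766 nuclei gave 16590747 UMIs (median 1836.5). The libraries shared 1 barcode. Summed UMIs of Tet1, Tet2 and Tet3 had log2 ratios of Tet tcKO over Cre- of 0.29, 0.41 and -0.05, but counts over whole genes include exons that are not floxed and do not check the deletion. Nuclei annotated by the authors as bipolar were 674 in the Cre- library (9.16%) and 1649 in the Tet tcKO library (24.4%). Rods made up 5214 Cre- nuclei and 6 Tet tcKO nuclei, and cones 265 and 3225. The bipolar annotation was checked against 18 bipolar markers that exclude the 8 factors. Leading genes of each cluster were ranked by summed UMIs and again with a gene counted once per nucleus. In 1 ranking or both, 4 of the 9 clusters annotated bipolar, all mainly Tet tcKO, and 3 of 15 rod clusters failed, since their 10 leading genes held more markers for a different class than for the annotated one. Cluster 35 failed in both rankings, and clusters 22, 39 and 41 by summed UMIs alone, through the cone marker Cngb3. The sum of the 18 bipolar markers, in counts per 1000000 UMIs (CPM), was 7231 in Cre- bipolar nuclei and 4550 in Cre- rods, and it was 4796 in Tet tcKO bipolar nuclei and 3672 in Tet tcKO cones. For these reasons no genotype ratio is given within bipolar or rod nuclei, and their levels are set side by side by library. How far RNA shared between droplets or mixed annotation set the levels was not tested.

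Over all nuclei, scaled by total UMIs, Vsx1 and Bhlhe22 were higher and Isl1, Prdm8, Bhlhe23 and Irx6 lower in Tet tcKO. Each of these had an interval clear of 0, and the intervals of Irx5 and Lhx4 included 0. The interval of Bhlhe22 began at 0.08, below the median log2 ratio of all genes tested (0.15). Of the 8, 4 reached 10 CPM in at least 1 library, Vsx1 only in Tet tcKO, where it was higher. None of these 4 differed by 2-fold or more between genotypes, where 5.66% of the 11158 genes tested did. With a minimum of 1 CPM all 8 were tested and 1 differed by 2-fold, Irx6, where 10.4% of genes did. The median log2 ratio of Tet tcKO over Cre- was -0.15 over the 4 at 10 CPM or more and 0.15 over all genes tested, which TMM scaling put at 0.04. Over all 8, including those below the minimum, it was -0.32. Sums over all nuclei cannot tell fewer nuclei of a type from less RNA per nucleus.

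Isl1, the most abundant of the 8, had 2192 UMIs in the Cre- library and 2431 in the Tet tcKO library. These are 190 and 147 CPM, a log2 ratio of -0.38 (-0.46 to -0.29). Prdm8 was likewise lower in Tet tcKO, with 641 and 726 UMIs, or 55.7 and 43.8 CPM, and a log2 ratio of -0.35 (-0.50 to -0.19). Both intervals lay below 0, and both ratios kept their sign under each of 8 other ways of scaling and counting.

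Lhx4 was level between the genotypes. It had 941 Cre- and 1402 Tet tcKO UMIs, or 81.8 and 84.5 CPM, and its log2 ratio of 0.05 (-0.07 to 0.17) ranged from -0.06 to 0.18 over these 8 alternatives, changing sign in 3. Vsx1 was higher in Tet tcKO, with 96 and 234 UMIs, or 8.34 and 14.1 CPM, a log2 ratio of 0.76 (0.41 to 1.12). Weighting the Tet tcKO classes by the Cre- class shares of UMIs gave 0.95 for Vsx1 and 0.18 for Lhx4. Rods and cones were taken there as 1 photoreceptor class, because Tet tcKO had 6 rods, so the share of Cre- rods fell on Tet tcKO cones.

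The other 4 genes had under 10 CPM in each library. Bhlhe22 was at 6.34 CPM in Cre- and 8.92 in Tet tcKO (73 and 148 UMIs), a log2 ratio of 0.49 (0.08 to 0.92). Bhlhe23, its relative of rod bipolar cells, was at 5.73 and 2.89 CPM (66 and 48 UMIs), a log2 ratio of -0.99 (-1.55 to -0.43). Scaled by total UMIs, the intervals of the 2 helix-loop-helix genes lay on opposite sides of 0. The lower limit of Bhlhe22 was below the median of all genes tested (0.15). TMM and median-of-ratios scaling each put the Bhlhe22 ratio at 0.39, with no interval recomputed. Irx5 was at 6.69 and 5.48 CPM (77 and 91 UMIs), a log2 ratio of -0.29 (-0.74 to 0.17) that was not distinguishable from 0 at this depth. Irx6 was at 5.56 and 1.81 CPM (64 and 30 UMIs), a log2 ratio of -1.62 (-2.30 to -0.97) and the lowest of the 8.

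**Figure D1:**
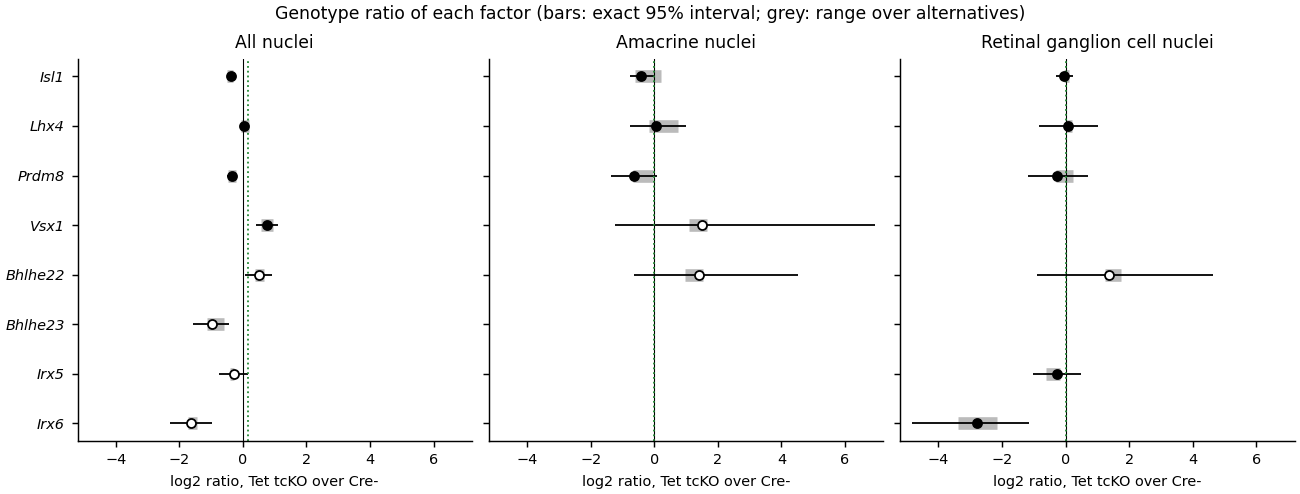
Log2 ratio of Tet tcKO over Cre- for each factor over all nuclei, amacrine nuclei and retinal ganglion cell nuclei. Points are ratios of summed UMIs as CPM with exact 95% intervals, filled where the gene reached 10 CPM in a library and open where it did not, grey bands are the range over the alternatives, and the dotted line is the median of all genes tested. Irx6 lies furthest to the left over all nuclei (-1.62) and in ganglion cell nuclei (-2.79), and genes without a point had too few UMIs or 0 in a library.

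Most UMIs of the bipolar factors came from outside nuclei annotated as bipolar. In the Cre- library, bipolar nuclei held 15.6% (Irx6) to 24.7% (Lhx4) of each gene's UMIs, while they held 15.3% of all UMIs. Rods held 31.2% (Irx5) to 70.8% (Vsx1), and 56.9% of all UMIs. In the Tet tcKO library, bipolar nuclei held 16.2% to 34.5% of each gene's UMIs and 26.8% of all UMIs.

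Within the Cre- library Isl1 was highest in bipolar nuclei, at 257 CPM (234 to 282). Cones followed at 199, rods at 185, ganglion cells at 163 and amacrine cells at 141. Bipolar nuclei were above cones beyond counting error, and cones, rods, ganglion cells, amacrine cells and Müller glia could not be ordered between neighbours. In the Tet tcKO library the order differed, with ganglion cells at 159, cones at 156 and bipolar nuclei at 151 CPM of Isl1, neighbours that did not differ beyond counting error. Amacrine nuclei were lower, at 107.

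Lhx4 was at 131 CPM in Cre- bipolar nuclei (115 to 149), 90.0 in Müller glia (20 UMIs), 89.7 in rods and 65.9 in cones. It was at 26.9 in Cre- amacrine and 13.8 in ganglion cell nuclei. Bipolar nuclei were not above Müller glia beyond counting error. In the Tet tcKO library Lhx4 was at 110 in cones and 109 in bipolar nuclei, again far above amacrine nuclei at 28.2 and ganglion cell nuclei at 14.5. Müller glia there had 3 UMIs of Lhx4. In both libraries Lhx4 was higher in bipolar nuclei and photoreceptors than in amacrine and ganglion cell nuclei. Prdm8 had a similar order, with 71.9 in Cre- bipolar nuclei, 67.9 in cones, 59.7 in rods, 43.0 in amacrine and 14.6 in ganglion cell nuclei. In Tet tcKO, Prdm8 was at 56.6 in cones, 48.1 in bipolar, 27.3 in amacrine and 12.2 in ganglion cell nuclei.

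Vsx1 was found in bipolar nuclei and photoreceptors of both libraries. Its Cre- level was 11.9 CPM in bipolar nuclei (21 UMIs), 10.4 in rods (68 UMIs) and 3.88 in cones (4 UMIs). In Tet tcKO it was at 20.3 in cones (150 UMIs), 15.7 in bipolar nuclei (70 UMIs), 5.12 in amacrine nuclei (12 UMIs) and 0.469 in ganglion cells (1 UMI). Cones and bipolar nuclei of Tet tcKO did not differ beyond counting error in Vsx1. Bhlhe22 was at 10.7 CPM in Cre- cones (11 UMIs), 7.93 in bipolar nuclei (14 UMIs) and 6.11 in rods (40 UMIs). In Tet tcKO it was at 12.4 in cones (92 UMIs), 9.39 in amacrine nuclei (22 UMIs) and 5.40 in bipolar nuclei (24 UMIs), and Müller glia of both libraries had 3 UMIs or fewer. Bhlhe23 was at 7.93 CPM in Cre- bipolar nuclei, 6.79 in cones and 6.72 in rods, and at 3.60 in Tet tcKO bipolar nuclei and 3.38 in cones.

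Of the Iroquois genes, Irx5 was higher in ganglion cells than in bipolar nuclei of both libraries. It was at 22.8 CPM in Cre- ganglion cells (28 UMIs), above bipolar nuclei at 7.36 beyond counting error, and at 3.67 in rods. In Tet tcKO it was at 18.8 in ganglion cells (40 UMIs, 13.4 to 25.5) and 4.05 in bipolar nuclei (2.40 to 6.40). Müller glia of the Cre- library listed 31.5 CPM, which rested on 7 UMIs. Irx6 was at 13.01 in Cre- ganglion cells (16 UMIs) and 5.66 in bipolar nuclei (10 UMIs), with intervals that overlapped. In Tet tcKO, Irx6 was at 2.16 in cones, 1.88 in ganglion cells and 1.57 in bipolar nuclei, on 16, 4 and 7 UMIs.

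**Figure D2:**
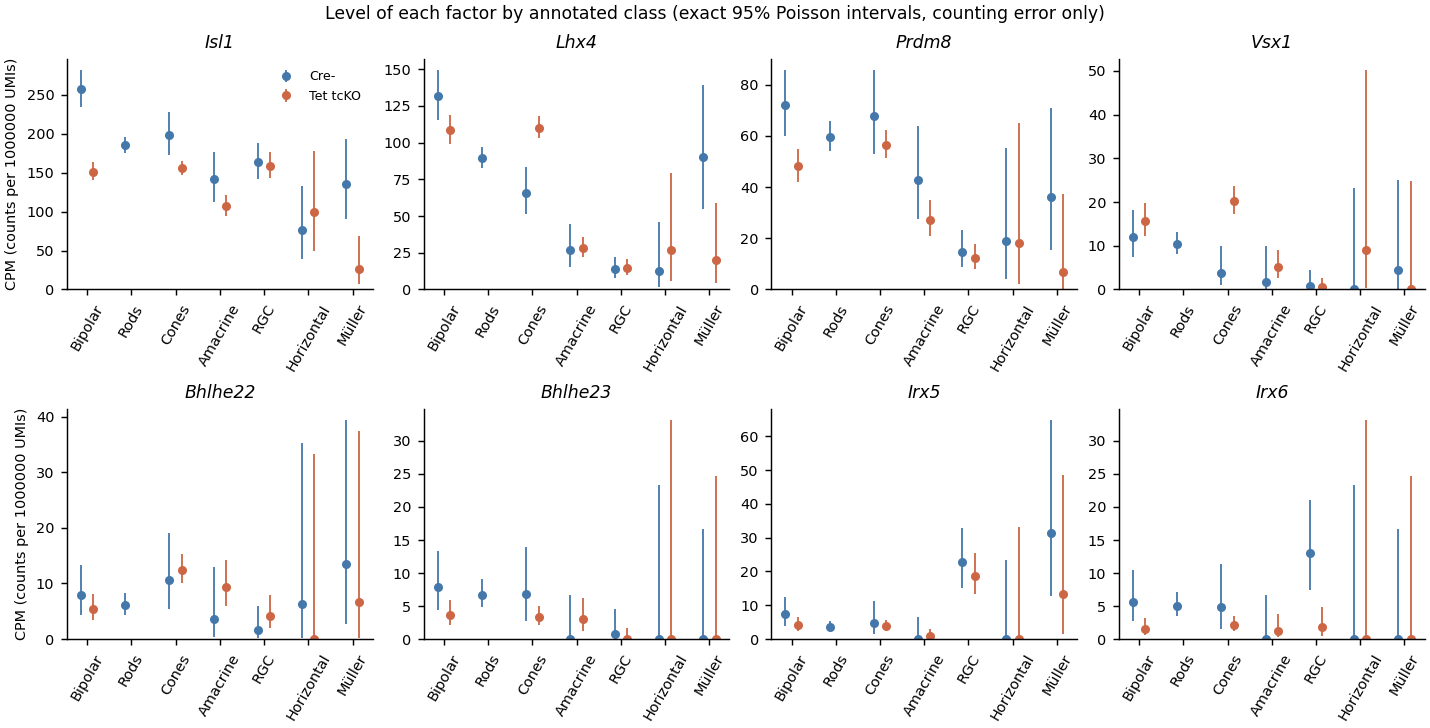
Level of each factor in CPM of the class, by annotated class, in the Cre- (blue) and Tet tcKO (orange) libraries, with exact 95% Poisson intervals and classes of 20 or more nuclei. Isl1 is highest in Cre- bipolar nuclei (257). Lhx4 and Prdm8 are high in bipolar nuclei and photoreceptors and low in ganglion cells, and Lhx4 is also at 90.0 in Cre- Müller glia. Irx5 is higher in ganglion cells (22.8 in Cre- and 18.8 in Tet tcKO) than in bipolar nuclei (7.36 and 4.05), while the Irx6 intervals of the 2 classes overlap.

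Bipolar nuclei were set against the main photoreceptor class of the same library. In Cre-, all 8 factors were higher in bipolar nuclei than in rods, with a median log2 ratio of 0.32, against 0.43 for the 18 bipolar markers. For Isl1 and Lhx4 alone the interval lay above 0. Irx5 alone reached 2-fold, at 1.01 (-0.09 to 2.04) on 13 bipolar and 24 rod UMIs. In Tet tcKO, 2 of the 8 were higher in bipolar nuclei than in cones, with a median of -0.14, against 0.04 for the markers. Bhlhe22 was lower in bipolar nuclei than in cones there, with a log2 ratio of -1.20, and its interval was the only one of the 8 to exclude 0. The annotation itself used expression of these nuclei, so these ratios describe the classes and test nothing. The same counts over all genes are not given, so the counts of higher factors cannot be read as a result about the factors.

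Detection per nucleus was compared at equal depth. After thinning every nucleus to 500 UMIs, at least 1 of the 8 factors was found in 24.5% of Cre- bipolar nuclei (21.3% to 27.9%) and in 17.1% of rods (16.1% to 18.1%), a class expected to lack most of them. In Tet tcKO the shares were 16.1% of bipolar nuclei (14.3% to 17.9%) and 16.7% of cones (15.4% to 18.0%), so bipolar detection was not above that in cones. Before thinning, the shares were 62.2% and 34.5% in Cre-, where median depths were 1968 UMIs in bipolar nuclei and 1025.5 in rods, and 51.3% and 51.5% in Tet tcKO, where they were 2009 in bipolar nuclei and 1715 in cones. Isl1 alone was found in 13.1% of thinned Cre- bipolar nuclei and 8.73% of rods, and in 7.34% of Tet tcKO bipolar nuclei and 6.88% of cones. Lhx4 was found in 8.01% and 4.55% of Cre- bipolar nuclei and rods, and in 5.58% and 5.30% of Tet tcKO bipolar nuclei and cones, while the ganglion cell shares were 0.353% (Cre-) and 0.568% (Tet tcKO). Irx6 was in 10 of 674 Cre- bipolar nuclei before thinning (1.48%) and in 0 after it. The interval of that 0 allows a detected share of up to 0.546% at 500 UMIs and does not limit the share that expresses the gene.

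The bipolar-annotated clusters differed among themselves in these factors. The Cre- nuclei lay mainly in clusters 3, 4 and 7, and the Tet tcKO nuclei in clusters 22, 35, 39, 41, 42 and 43, with no bipolar cluster holding 20 nuclei in both libraries. Genotypes were therefore not compared within a cluster. The clusters were made from the same nuclei and genes, so their differences are described without a test.

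Across the Cre- clusters Isl1 was at 248 CPM in cluster 3, 239 in cluster 4 and 311 in cluster 7, where its log2 ratio over the other bipolar clusters was 0.35 (0.04 to 0.65). Across the Tet tcKO clusters it ran from 25.6 in cluster 22 (10 UMIs) through 87.1 in cluster 35, 157 in cluster 39, 177 in cluster 43 and 192 in cluster 41 to 374 in cluster 42. Against the other bipolar clusters of Tet tcKO, cluster 22 was lower in Isl1 by a log2 ratio of -2.67 (-3.73 to -1.78) and cluster 42 higher by 1.43 (1.09 to 1.76). Clusters 22 and 35, the 2 lowest in Isl1, had cone or amacrine markers among their leading genes. Clusters 39 and 41, at 157 and 192 CPM of Isl1, also had the cone marker Cngb3 among theirs.

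Cluster 42 also stood out for Vsx1, at 74.7 CPM on 17 UMIs in 17 of 148 nuclei. The other Tet tcKO bipolar clusters ranged from 8.21 in cluster 39 to 24.6 in cluster 43. The log2 ratio of Vsx1 in cluster 42 over the others was 2.57 (1.69 to 3.38), and Vsx1 was among the 10 leading genes of that cluster. Prdm8 at 96.7 and Lhx4 at 198 CPM were also highest of the Tet tcKO bipolar clusters in cluster 42, by log2 ratios of 1.10 (0.39 to 1.74) and 0.93 (0.45 to 1.37). Irx5 and Bhlhe22 had 0 UMIs in that cluster. Clusters 42 and 43 had no listed marker of any class among their leading genes in either ranking, so their identity rests on the deposited annotation.

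In the Cre- library the deepest cluster, 3, with a median of 3959 UMIs per nucleus, was the lowest of the 3 in Vsx1, Lhx4 and Prdm8. Vsx1 was at 5.56 CPM there against 21.9 in cluster 4 and 17.2 in cluster 7. Lhx4 was at 100.1 in cluster 3, 146 in cluster 4 and 177 in cluster 7, and Prdm8 at 57.8, 87.7 and 88.3. Median depth was 2155 UMIs in cluster 4 and 1169 in cluster 7. In Tet tcKO, Lhx4 was again lowest in the deepest cluster, 39, at 81.5 with a median depth of 4122 UMIs. It was at 93.3 in cluster 35, 118 in cluster 43, 125 in cluster 22 and 184 in cluster 41. Prdm8 in Tet tcKO was at 44.9 CPM in cluster 39 and lowest in cluster 41 (29.4 CPM, median depth 1720.5). Median depth was 1633 UMIs in cluster 35 and 2495 in cluster 43. The part of depth in these levels was not tested. Irx5 had 0 UMIs in clusters 22, 35 and 42 and 11 of its 18 Tet tcKO bipolar UMIs in cluster 39.

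**Figure D3:**
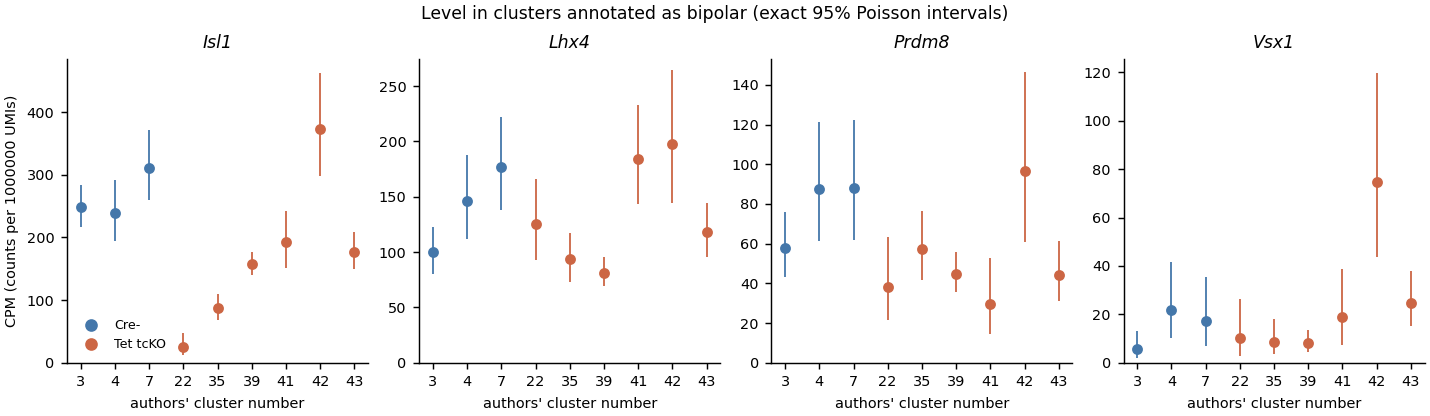
Level of Isl1, Lhx4, Prdm8 and Vsx1 in CPM of the cluster, for clusters annotated as bipolar with 20 or more nuclei, with exact 95% Poisson intervals. Blue clusters are Cre- and orange clusters Tet tcKO. Cluster 42 is the highest Tet tcKO cluster for all 4 genes, and cluster 22 is the lowest for Isl1 (25.6).

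Bipolar nuclei in which a factor was found were mostly the deeper ones. In Cre-, nuclei with an Isl1 UMI had a median of 2897 UMIs, and those without had 1613. In Tet tcKO the medians were 2983 and 1786. The exception was Vsx1 in Cre-, where the 20 nuclei with it had a median of 1899.5 and those without 1968. Isl1 and Lhx4 were found together in 83 Cre- bipolar nuclei, where the product of their shares gave 68.1, and in 111 Tet tcKO nuclei, where it gave 101. Prdm8 and Lhx4 shared 34 Cre- nuclei (product 26.8) and 61 Tet tcKO nuclei (product 43.8). Of pairs with a product of 5 or more, 5 of 6 in Cre- and 7 of 8 in Tet tcKO lay above it. Vsx1 and Prdm8 lay below it in Tet tcKO, with 4 nuclei (product 7.34). The product takes no account of the depth of nuclei, and the part of depth in the differences was not tested. Isl1 and Vsx1 shared 7 Cre- nuclei (product 7.92) and 29 Tet tcKO nuclei (product 16.8). Of these 29 nuclei, 11 were in cluster 42, where 17 of 148 nuclei had Vsx1, 60 had Isl1 and the product was 6.89. Leaving out the 5% of nuclei with the highest doublet scores left 24 of the 29, with all 11 in cluster 42 but 2 of 7 in cluster 39. It left 309 of the 409 nuclei of cluster 39 and 1486 of the 1649 Tet tcKO bipolar nuclei. Of pairs with a product of 5 or more, 5 of 6 in Cre- and 4 of 6 in Tet tcKO were then above it. At 500 UMIs per nucleus 23 of 28 pairs in Cre- and 24 of 28 in Tet tcKO were never seen together, so exclusion of factors cannot be read at this depth.

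Amacrine and ganglion cell nuclei were compared between genotypes, because in no cluster of either did markers for a different class outnumber those for the annotated one, although different clusters held most of them. Cones, horizontal cells and Müller glia also passed this check, but no ratio was made for them. Amacrine clusters 23 and 27 had no marker of any class among their leading genes, so their identity rests on the deposited annotation. Of 403 Cre- amacrine nuclei 63.5% were in cluster 27, and of 1043 Tet tcKO ones 34.2% were in cluster 12 and 30.8% in cluster 24. In amacrine nuclei 3 of the 8 factors reached 10 CPM and 0 differed by 2-fold, where 12.9% of 10831 genes did. At 1 CPM, 2 of 6 differed, Vsx1 and Bhlhe22, both on 1 or 2 Cre- UMIs, where 20.2% of genes did. Isl1 was at 141 CPM in Cre- and 107 in Tet tcKO (79 and 250 UMIs), a log2 ratio of -0.41 (-0.78 to -0.02).

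The Isl1 ratio was below 0 over all amacrine nuclei and above 0 on each side of a split by starburst nuclei. That split was chosen after the data were seen. Cluster 13, led by Chat and Slc5a7, the enzyme and transporter of acetylcholine synthesis, held 17.9% of Cre- and 11.7% of Tet tcKO amacrine nuclei, and 67 of the 79 Cre- and 184 of the 250 Tet tcKO amacrine Isl1 UMIs. Within cluster 13 Isl1 was at 576 CPM in Cre- (72 nuclei) and 713 in Tet tcKO (122 nuclei), a log2 ratio of 0.31 (-0.10 to 0.73). Outside it Isl1 was at 27.1 and 31.7 CPM, and the log2 ratio was 0.22 (-0.68 to 1.25). Both intervals included 0, and the part of the share of starburst nuclei in the ratio over all amacrine nuclei was not tested. The 2 levels in cluster 13 were the highest Isl1 levels of any cluster with 20 or more nuclei, ahead of 374 CPM in bipolar cluster 42.

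Prdm8 in cluster 13 went the other way, with 11 UMIs in 9 Cre- nuclei and 4 UMIs in 4 Tet tcKO nuclei. These are 94.6 and 15.5 CPM, a log2 ratio of -2.61 (-4.72 to -0.86), which was singled out after the values were seen. In the other amacrine nuclei Prdm8 was at 29.4 and 28.8 CPM. Bhlhe22, which amacrine subtypes also use, counted 2 UMIs in Cre- against 22 in Tet tcKO amacrine nuclei, 3.58 and 9.39 CPM, a log2 ratio of 1.39 (-0.63 to 4.52) that this depth could not separate from 0. Vsx1 had 1 and 12 UMIs, Bhlhe23 0 and 7, Irx5 0 and 2 and Irx6 0 and 3.

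In ganglion cell nuclei 5 of the 8 factors reached 10 CPM and 1 differed by 2-fold, where 6.72% of 10262 genes did. That gene was Irx6, with 16 UMIs in 567 Cre- nuclei and 4 in 704 Tet tcKO nuclei, 13.01 and 1.88 CPM, a log2 ratio of -2.79 (-4.83 to -1.16). Irx6 reached 10 CPM in Cre- alone, where it was higher, so the count of 1 rests on a gene that passed through that library. Cluster 8, which held 69.5% of Cre- and 4.12% of Tet tcKO ganglion cell nuclei, had 11 of the 16 Cre- UMIs. Without cluster 8, Irx6 was at 8.54 and 1.92 CPM on 5 and 4 UMIs, a log2 ratio of -2.15 (-4.48 to 0.06), below the minimum of 10 CPM and no longer clear of 0. At 1 CPM, 2 of 6 differed, Irx6 and Bhlhe22 (2 and 9 UMIs), where 15.5% of genes did. Irx5, the neighbour of Irx6 on the chromosome, was at 22.8 and 18.8 CPM, and the log2 ratio was -0.28 (-1.01 to 0.47).

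Isl1 was level in ganglion cells, at 163 CPM in Cre- and 159 in Tet tcKO (201 and 339 UMIs), a log2 ratio of -0.04 (-0.30 to 0.22). In cluster 2, which both genotypes filled with 111 and 185 nuclei, it was at 163 and 137, a log2 ratio of -0.25 (-0.68 to 0.19). In cluster 31 it was at 82.5 on 7 UMIs and 150.02 on 70 UMIs. Irx5 in cluster 2 was at 26.7 and 23.6 CPM. The values for ganglion cells differed by less than counting error for Isl1, Irx5, Prdm8 and Lhx4, with intervals that reached from a log2 ratio of -1.19 (Prdm8) to 1.02 (Lhx4).

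**Figure D4:**
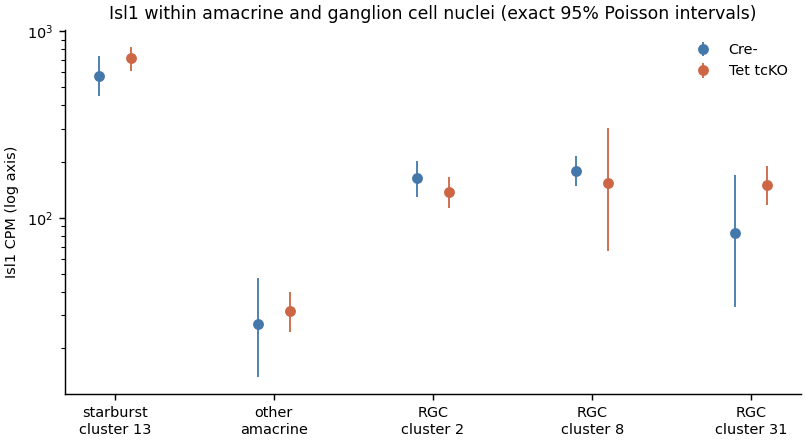
Isl1 in CPM (log axis) within starburst cluster 13, the other amacrine nuclei and ganglion cell clusters 2, 8 and 31, in Cre- (blue) and Tet tcKO (orange), with exact 95% Poisson intervals. Starburst nuclei sit at 576 and 713, the other amacrine nuclei at 27.1 and 31.7, and the intervals of the genotypes overlap in every group.

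Genes whose levels ran like those of each factor were sought over 47 populations, each a cluster of 50 or more nuclei in a library, among 14954 genes. The populations share libraries, depth and ambient RNA, so the correlations are a description. Lhx4 ran with Tafa3 (r = 0.92) and Samsn1 (r = 0.92), among others, and Vsx1 was most like Fam135b (r = 0.77), Samsn1 (r = 0.77) and Lhx4 itself (r = 0.77). Prdm8 was most like Gabrr2, a rho subunit of ionotropic GABA receptors (r = 0.84), and also ran with Myom1 (r = 0.81). Isl1 was most like Car10 (r = 0.74), Mboat1 (r = 0.63) and Clstn3 (r = 0.63). Bhlhe23 was most like Gm14343, which overlaps it (r = 0.69), Prkca, the kinase that marks rod bipolar cells (r = 0.68), and Gm534 (r = 0.68). Bhlhe22 ran with Pon2 (r = 0.74), Efcab7 (r = 0.69) and Ostm1 (r = 0.67). Irx5 ran with Slc35f1 (r = 0.73), Lrrc36 (r = 0.73) and Ebf1 (r = 0.72), and Irx6 with Pvalb, a calcium-binding protein (r = 0.72), Gm40841 (r = 0.62) and Tyro3 (r = 0.60). Among the 8, Prdm8 and Lhx4 were closest (r = 0.80) and Irx5 and Prdm8 furthest (r = -0.45).

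The other bipolar genes set the factors in context. In a list of other transcription factors tied to bipolar fate, 8 of 10 reached 10 CPM, with a median log2 ratio of -0.02. Only Prdm1 was at least 2-fold higher in Tet tcKO, and 0 were 2-fold lower. Prdm1 holds photoreceptor fate against bipolar fate, so the list's 1 call is not of a gene that promotes bipolar fate. The log2 ratio of Prdm1 was 1.81 (1.66 to 1.96). Lhx3, a LIM-homeodomain relative of Lhx4, was at -0.81 (-1.14 to -0.48). Of the genes of the ON mGluR6 pathway, 10 were tested, with 2 higher, 2 lower and a median log2 ratio of -0.49. Trpm1, the channel that mGluR6 closes, was lowest at -1.495 (-1.55 to -1.44) and Pcp2 followed at -1.23, while Lrit3 was at 1.30 and the G-protein subunit gene Gnb3, which cones use too, at 1.18. In rod bipolar genes 3 were tested and 0 reached 2-fold in either direction, with Vstm2b highest at 0.38, Car8 lowest at -0.79 and a median of -0.64. Scaled by total UMIs, the 5 OFF cone bipolar genes all had ratios above 0, with a median of 0.26 and 0 at 2-fold. They ran from Neto1 at 0.02 (-0.18 to 0.22), below the median of all genes tested (0.15), to Erbb4 at 0.94. Of 4 tested ON cone bipolar genes, Kcng4 was at 1.26 and Igfn1 at -0.67, with a median of 0.22. Of 7 bipolar genes of several types, Cabp5 was at 1.82 and Gsg1 at -0.72, with a median of -0.03. The median of the 4 factors at 10 CPM or more was -0.15. Over all genes tested 3.18% were 2-fold higher and 2.48% 2-fold lower. Some genes reached 10 CPM only in the library where they were higher. Among them were Vsx1, Kcng4 (6.86 CPM in Cre- and 16.5 in Tet tcKO) and Lhx3 (14.7 in Cre- and 8.38 in Tet tcKO). The medians of these short lists depend on that filter, so they were not ranked.

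**Figure D5:**
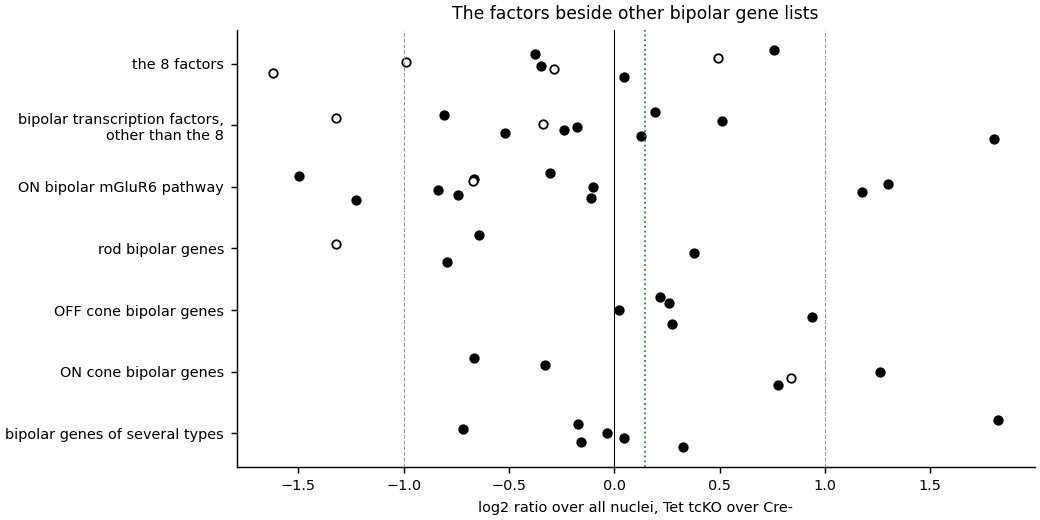
Log2 ratio of Tet tcKO over Cre- over all nuclei for the 8 factors and for other bipolar gene lists, 1 point a gene, filled where the gene reached 10 CPM in a library. Dashed lines mark 2-fold and the dotted line the median of all genes tested (0.15). The 8 factors run from -1.62 (Irx6) to 0.76 (Vsx1), and Trpm1 is the lowest of the ON pathway (-1.495). The 5 OFF cone bipolar genes all lie above 0, but Neto1 (0.02) lies below the median of all genes tested.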

How the data were processed

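Nuclei from whole P21 retina were profiled by PIPseq in 1 Cre- and 1 Tet tcKO library. The authors aligned reads with pipseeker v3.3.0 to GRCm39, removed ambient RNA, applied a filter of more than 500 and less than 10000 transcripts per nucleus and less than 20% mitochondrial ones, clustered them and annotated classes. The deposited matrices hold UMI counts, and the deposited cell tables give the percent of mitochondrial transcripts, a size factor ratio and a cluster number. The deposited gene table gives mean signal per genotype (counts per 10000), which was not used. All 7357 and 6766 nuclei lay within the stated filter, with 11510585 and 16590747 UMIs.

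Counts of the 8 factors were summed per library, class and cluster and given per 1000000 UMIs (CPM). With 1 library a genotype no test was made. Log2 ratios have exact conditional intervals, levels exact Poisson intervals and shares Clopper-Pearson intervals, all at 95%, and a call meant 2-fold among genes at 10 CPM or more in a library. A class passed if, in each cluster with 20 or more nuclei, no other class had more markers among the 10 leading genes than the class itself. This had to hold by summed UMIs and counted once per nucleus, so clusters without markers of any class also pass. Within classes, ratios were made for amacrine and ganglion cells alone. Cones, horizontal cells and Müller glia also passed and were not compared. Nuclei were thinned to 500 UMIs for detection. Doublets were not removed, and Scrublet scores (scanpy 1.11.5) served to leave out the top 5% as an alternative. edgeR 4.0.16 (TMM) and DESeq2 1.42.0 (median of ratios) gave other scalings. Python 3.11.15, numpy 2.4.6, scipy 1.17.1 and pandas 2.3.3 were used, and the ratio and interval code was tested on simulated data. Alternatives also changed the filter, counted a gene once per nucleus, weighted nuclei equally, kept nuclei of 1000 UMIs or more, left out mitochondrial genes, or fixed class shares, with rods and cones as 1 class. 2 more, without amacrine cluster 13 and without ganglion cell cluster 8, were chosen after seeing the data.

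Named genes were the 8 factors, the 3 genes most correlated with each (log2(CPM + 10), genes at 10 CPM or more in a population and 50 UMIs in all) and the highest and lowest log2 ratio of each bipolar list, up to 4 genes a list. The members and lists were chosen with earlier results of these data known. Results of some genes that the rule names are not reported here.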

Additional observations from a re-analysis of the deposited data

Results flagged for a closer look

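The deposited gene table, which no comparison used, gives for each gene a count of nuclei over both genotypes, and this count was larger than the number of nuclei with a UMI in the 2 matrices for all 8 factors. The excess was 483 nuclei for Isl1, 345 for Lhx4, 223 for Prdm8, 46 for Vsx1, 32 for Bhlhe22, 25 for Bhlhe23, 23 for Irx5 and 19 for Irx6. The table's count was 1.14 (Isl1) to 1.23 (Bhlhe23) times that of the matrices, so the table covers nuclei or UMIs that the matrices used here do not, and which ones was not tested.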

How the results depend on the processing

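No paired analysis was possible because each genotype had 1 library. Of 352 values recomputed, 313 stayed within 1.5 times the main count or within the main counting interval, 38 moved and 1 reversed; the filters cannot move a single gene's ratio. Isl1 in amacrine nuclei turned from a log2 ratio of -0.41 to 0.22 without cluster 13. The count of factors at 2-fold moved over all nuclei from 0 to 1, in amacrine nuclei from 0 to 2 and in ganglion cells from 1 to 2, at 1 CPM or with no filter, by construction since more genes were tested. In amacrine nuclei it was 1 when a nucleus counted a gene once and 1 without cluster 13, and in ganglion cells it was 0 without cluster 8. No share of all genes is given for these settings, so these counts say nothing of the factors in particular. At 1 CPM, with no filter and once per nucleus, the count of other transcription factors at 2-fold moved from 1 to 2 and that of rod bipolar genes from 0 to 1. Detection of any factor in bipolar nuclei was 62.2% (Cre-) and 51.3% (Tet tcKO) without thinning and 37.3% and 27.9% at 1000 UMIs, and bipolar nuclei with 2 or more factors went from 22.4% and 15.2% to 2.37% and 0.970% at 500 UMIs, as fewer UMIs allow. Of 24 genes named by likeness, 15 stayed with log2(CPM + 1) and 11 with Spearman correlation. For the other moved values the cause was not tested. TMM and median-of-ratios scaling moved the median of all genes from 0.15 to 0.04 and 0.03, and Isl1 over all nuclei to -0.48 and -0.49. With 30 to 234 UMIs a library, Vsx1, Bhlhe22, Bhlhe23, Irx5 and Irx6 allow statements over all nuclei but few within classes.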
